A study of Mus musculus with 21 samples.

Results

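Described here are natural killer (NK) cells of the mouse spleen that carried Cre recombinase and no deletion, the baseline of a study of the transcription factors Ikaros (gene Ikzf1) and Aiolos (gene Ikzf3). They make up 4 of the 15 libraries in the deposited table, the columns S16, S17, S18 and S19, and were chosen by their genotype label. The labels describe 21 samples in all: cultured cells of the genotypes Cre only (4), Ikzf1 KO (4), Ikzf3 KO (4) and DKO, which lack both genes (3), and 6 directly sorted samples that were not analysed here. Cultured cells were sorted from spleen and kept in medium with recombinant human interleukin 15 (IL-15) at 50 ng/ml. The knockouts were conditional in NK cells, and the labels name neither the driver of the Cre nor the age or sex of the mice. The columns name the genotype and not the culture: Cre was read as the cultured group because it has 4 columns, as that group has 4 samples, while the directly sorted Cre only group has 3.

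NK cells are innate lymphocytes that kill infected or transformed cells without prior immunisation. They release granules holding perforin, which makes pores, and granzymes, which are proteases. Whether they do so depends on the sum of activating and inhibitory receptors, many of which in the mouse belong to the Ly49, NKG2 and NKR-P1 families of lectin-like proteins. IL-15 signals through a receptor with the shared beta and gamma chains of the IL-2 receptor and the kinases JAK1 and JAK3, and keeps NK cells alive and dividing.

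Values are RPKM, reads per kilobase of gene length and per megaread of the library as the authors scaled it, so that levels of different genes can be compared per length. The table held 11734 distinct genes, and a rank below is a place among these. Whole reads could be recovered from the values, between 13.25 and 15.98 megareads per library. S16 and S17 were the most alike of the 6 pairs of libraries, with 8 of the 6404 genes of a mean of at least 5 RPKM more than 2-fold apart, and S18 and S19 followed with 36. The 4 pairs that join S16 or S17 with S18 or S19 had from 149 to 363 such genes. No label gives a day, an animal or a batch that would part these libraries, and what parts them was not tested. Throughout, 4 values in a row stand for S16, S17, S18 and S19 in that order, and ± is the SD over these 4 libraries. Nothing in the labels says which animals or cultures the libraries came from beyond calling them biological replicates, so the SD measures the spread between these samples.

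Markers of the labelled cell type were high, except for Itga2. All 12 genes of the NK cell marker list were found, and 11 were at 10 RPKM or more. The median of all genes was 6.16 RPKM. The markers ranged from Gzma at 10867 RPKM to Itga2, the integrin known as CD49b, which at 5.84 RPKM was below that median. Their summed level ran from 19849 to 25205 RPKM and came mostly from Gzma and Gzmb. Of 13 T cell markers 11 were found, with a summed level from 440.4 to 697 RPKM that came mostly from the T cell receptor constant genes Trbc1 (296 ± 21.9 RPKM) and Trbc2 (201.01 ± 56.4 RPKM). Among the defining T cell genes, Cd3g stood at 46.9, 49.1, 24.8 and 8.01 RPKM, Cd3e at 3.10, 2.50, 0.237 and 0.240 RPKM, Cd4 at 0.274, 0.523, 0.0184 and 0 RPKM and Cd8a at 0.761, 0.411, 0 and 0 RPKM. Cd3g and Cd3e were thus higher in S16 and S17 than in S18 and S19. The 6 of 8 markers of type 1 innate lymphoid cells (ILC1) that were found summed to 93.7 to 351 RPKM, with Cxcr6 at 172, 143, 67.3 and 53.5 RPKM and Il7r at 0.920, 1.24, 0.0319 and 0.0787 RPKM. Of the 4 ILC1 markers at 5 RPKM or more, 3 were higher in S16 and S17 than in S18 and S19. The other, the integrin gene Itga1, was lower there, at 7.07, 7.24, 12.1 and 9.48 RPKM. The 6 of 9 dendritic cell markers found summed to 16.7 to 75.8 RPKM, led by the MHC class II gene H2-Ab1 at 44.6, 54.9, 19.2 and 10.4 RPKM. Both sums were higher in S16 and S17 than in S18 and S19. The 3 of 8 B cell markers found summed to 20.8 to 40.2 RPKM, nearly all from Ighm, with Cd79b at a mean of 0.308 RPKM. The 3 of 9 monocyte and macrophage markers found summed to 15.0 to 34.6 RPKM, nearly all from Cd68, and Lyz2 was listed at 0 in all 4 libraries. Mcpt8 and Cpa3, the 2 of 6 mast cell and basophil markers found, summed to 9.80 to 50.5 RPKM. Of 7 markers of other innate lymphoid cells 3 were found, with Il1rl1 at a mean of 0.0563 RPKM beside Kit at 104 ± 37.2 RPKM. Pf4 was the only platelet marker found of 9 in its list and was listed at 0, Pecam1 was the only endothelial or stromal marker found of 6 and stood at 39.6 ± 6.42 RPKM, and the 8 neutrophil markers were not analysed here. In RNA of a bulk population, fewer cells of a type and less RNA per cell cannot be told apart, and the part of other cells in the values below was not tested.

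Both factors were above the median gene, which stood at 6.16 RPKM. Ikzf1 (ENSMUSG00000018654, chr11:11685003-11772926 of mm10) stood at 57.7, 59.3, 61.1 and 69.4 RPKM and ranked 875. Ikzf3 (ENSMUSG00000018168, chr11:98464902-98546031) stood at 45.0, 44.8, 37.7 and 39.6 RPKM and ranked 1348. The 4 libraries lay within 11.7 RPKM of each other for Ikzf1 and within 7.25 RPKM for Ikzf3. Every Cre only library was above every Ikzf1 KO library (18.3 to 19.9 RPKM) and every DKO library (25.3 to 38.4 RPKM) for Ikzf1, and above every Ikzf3 KO library (15.2 to 20.2 RPKM) and every DKO library (20.0 to 23.7 RPKM) for Ikzf3. An exact permutation test, 2-sided, gave p = 0.0286 against each single knockout (4 against 4) and p = 0.0571 against DKO (4 against 3), each the smallest that these group sizes allow. Adjusted over the 4 comparisons, which share the Cre only samples, all 4 exact p-values were 0.0571. The labels do not say which exons were removed, and RPKM counts the exons that remain. Of the other members of the Ikaros family, Ikzf2 (Helios) stood at 3.26, 2.84, 0.882 and 0.664 RPKM, higher in S16 and S17 than in S18 and S19. Ikzf4 (Eos) stood at 1.71 ± 0.219 and Ikzf5 (Pegasus) at 0.411 ± 0.0972 RPKM, so that Ikzf1 and Ikzf3 were the 2 of 5 family members above 10 RPKM.

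The ranking by mean RPKM was led by granzymes. Gzmc (ENSMUSG00000079186, chr14:56231441-56234656) stood at 17825, 18342, 11776 and 7463 RPKM, Gzma (ENSMUSG00000023132, chr13:113093825-113100981) at 11749, 10819, 11394 and 9506 RPKM and Gzmb (ENSMUSG00000015437, chr14:56258838-56262260) at 9827, 11121, 9187 and 7955 RPKM. In S16, S17 and S18 the order was Gzmc first, but in S19 both Gzma and Gzmb were above it. Together these 3 genes made up 9.71% of the summed RPKM of all genes, from 7.41% in S19 to 11.0% in S17. Of RPKM times exon length, which stands for reads, they took 3.48%. That share is smaller because RPKM divides by gene length and these transcripts are short. The 10 highest genes held 17.2% and the 100 highest 38.0% of the summed RPKM. The median gene stood at 6.16 RPKM. Of all genes, 32 reached 1000 RPKM, 506 reached 100, 4491 reached 10 and 9322 reached 1, while 21 were listed at 0 in all 4 libraries.

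**Figure D1:**
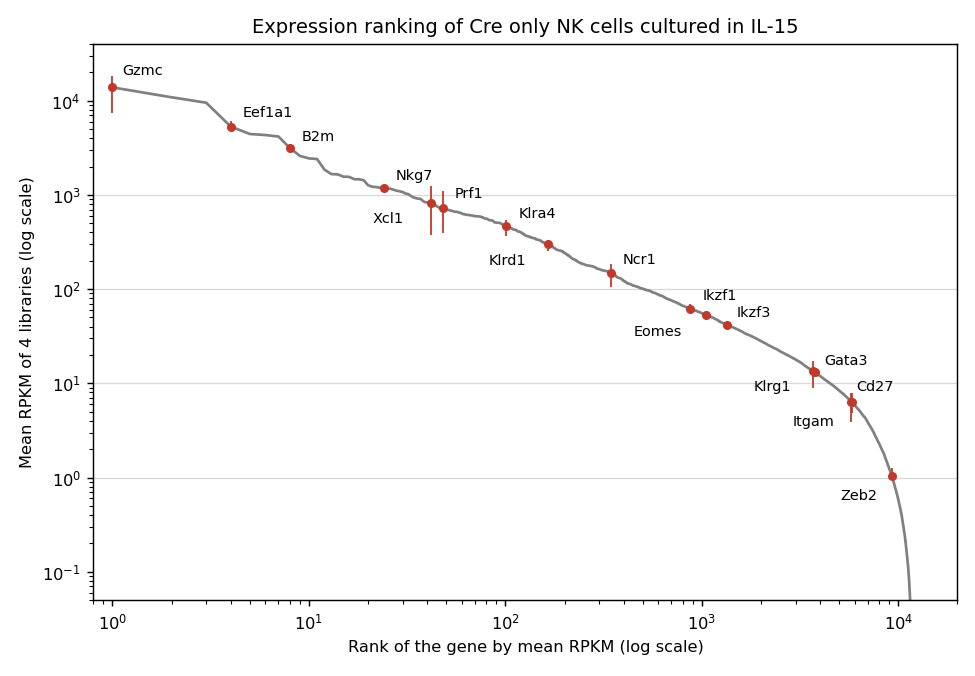
Mean RPKM of each gene (vertical, log scale) against its rank among the 11734 genes (horizontal, log scale), as a grey line, with named genes as points and the lowest to the highest of the 4 Cre only libraries as a bar. Gzmc leads at a mean of 13851 RPKM with a long bar, Ikzf1 and Ikzf3 lie at ranks 875 and 1348, and the curve drops steeply beyond Zeb2 at 1.04 RPKM.

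Below the granzymes came genes of translation, the cytoskeleton and antigen presentation. The elongation factor gene Eef1a1 stood at 5004, 5157, 6048 and 5061 RPKM, with S18 above the rest. Tmsb4x, whose product binds actin monomers, stood at 4483, 4306, 4590.1 and 4351 RPKM, and the beta-actin gene Actb at 4097, 4582, 4065 and 4536 RPKM. Next were Rplp1, a protein of the ribosomal stalk (4166 ± 261 RPKM), B2m, the light chain of MHC class I (3143 ± 222 RPKM), mt-Co1, a mitochondrially encoded subunit of cytochrome oxidase (2593 ± 390.4 RPKM), and Eef2, the translocation factor (2441 ± 356 RPKM). Between neighbours in the 25 highest genes, the libraries did not overlap for 4 steps only: Gzmb to Eef1a1, Eef1a1 to Tmsb4x, Rplp1 to B2m and Rps15 to Rplp0. At every other step at least 1 library of the lower gene reached into the range of the higher. Of the 25 highest genes 19 were among the 25 highest in each library, and of the 100 highest 82 were among the 100 highest in each.

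Ribosomal protein genes filled 9 of the 25 and 35 of the 100 highest places. All 28 members of the fixed ribosomal list that were found were above 100 RPKM, from Rps19 at 131 to Rplp1 at 4166 RPKM, with a median of 659.5 RPKM. Their values may hold reads of near-identical pseudogenes, since how reads with several matches were counted is not given in the sources used here. Genes of the mitochondrial genome took 8 of the 100 highest places and 2.82%, 2.17%, 2.30% and 3.496% of the summed RPKM in S16 to S19. Among them mt-Cytb stood at 1577, 1154, 1504 and 2371 RPKM and mt-Nd1 at 1490.1, 1208, 1101 and 1929 RPKM, both highest in S19. In the class I pathway H2-K1 stood at 1566, 1610.5, 1381 and 1299 RPKM and H2-D1 at 1264, 1265, 1337 and 1203 RPKM, with reads that these similar genes may share. All 12 members found of that pathway were above 10 RPKM, down to the transactivator gene Nlrc5 at 12.1 ± 0.941 RPKM. The cytoskeleton list had a median of 444 RPKM, with Pfn1 (profilin, 1186 ± 72.9 RPKM), Coro1a (coronin, 863 ± 62.2 RPKM) and Cfl1 (cofilin, 827 ± 64.7 RPKM) next to the actin genes.

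The 11 granzyme and perforin genes spread from below 1 RPKM to the top of the ranking. Prf1, which encodes perforin, stood at 740.3, 1095, 654 and 390.2 RPKM and ranked 48. Gzmd stood at 478, 950.2, 296 and 49.5 RPKM, Gzme at 398, 691, 203 and 29.0 RPKM and Gzmg at 93.5, 202, 59.6 and 8.41 RPKM. Gzmf stood at 8.28, 15.7, 5.17 and 0.333 RPKM. For Prf1 and these 4 granzymes S17 was the highest library and S19 the lowest, and S16 was above S18. The 4 granzymes lie beside Gzmb and Gzmc on chromosome 14, where Gzme starts at 56117626 and Gzmb ends at 56262260. Genes of this cluster resemble each other, and how reads that match several of them were counted is unknown. Gzmk (2.37 ± 0.501 RPKM) and Gzmm (1.74, 1.75, 0.858 and 1.83 RPKM) were close to 2 RPKM, and Gzmn was at 0.260 ± 0.246 RPKM. Of the 8 members at 5 RPKM or more, 7 had both S16 and S17 above S18 and S19, where 29.8% of all genes at that level did. The exception was Gzma, whose S18 value lay above that of S17.

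Genes for making and releasing granules were more even than Prf1 and the granzymes Gzmc to Gzmg, but not than Gzma and Gzmb. On the log2 scale Gzma and Gzmb had SDs of 0.13 and 0.20. These lie within the range of the granule genes, whose largest SD was 0.42, for Serpinb6b. Nkg7, a granule membrane protein needed for full degranulation, stood at 1177, 1229, 1218 and 1136 RPKM, an SD of 0.05 on the log2(RPKM + 0.5) scale. Ctsw (cathepsin W) stood at 491 ± 40.2, Srgn (serglycin, the proteoglycan that packs granzymes) at 333 ± 40.3 and Ctsd (cathepsin D) at 265 ± 46.9 RPKM. Serpinb9, an inhibitor of granzyme B, stood at 203, 234, 221 and 147 RPKM, and its relative Serpinb6b at 409.7, 413, 365 and 222 RPKM, both lowest in S19. Cst7 (cystatin F) stood at 205 ± 43.4 RPKM, and the fusion machinery genes Rab27a and Unc13d at 47.5 ± 4.26 and 35.9 ± 3.22 RPKM. The 16 members found were all above 10 RPKM, and none had an SD above 1.

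Among the listed chemokines, death ligands and cytokines, chemokines were highest. The secreted protein gene Spp1, which is in neither list, had a higher mean. It stood at 1268, 1548, 964 and 586 RPKM and ranked 29. Xcl1, which attracts cross-presenting dendritic cells, stood at 1244, 1093, 375 and 534 RPKM, and Ccl5 at 684, 689.7, 801 and 580.4 RPKM. Ccl4 stood at 394, 463, 199 and 126 RPKM and its neighbour in sequence Ccl3 at 225, 234, 97.9 and 75.0 RPKM. Ccl1, a ligand of CCR8, stood at 64.5, 72.0, 6.39 and 4.47 RPKM. All but Ccl5 were higher in S16 and S17 than in S18 and S19, while S18 was the highest library for Ccl5. Cxcl10 and Ccl9 were below 1 RPKM, at 0.775 ± 0.336 and 0.767 ± 0.348. Ifng, which encodes interferon gamma, stood at 52.7, 68.2, 20.5 and 15.6 RPKM, and Csf2 (GM-CSF) at 13.7, 15.1, 2.23 and 1.2998 RPKM, again higher in S16 and S17. Ltb (lymphotoxin beta) stood at 208, 202, 81.8 and 91.1 RPKM and followed the same order of pairs. The death ligand gene Fasl was nearly level at 55.5 ± 2.44 RPKM, and Tnfsf10 (TRAIL) stood at 31.1 ± 5.33 RPKM. Tnf and Lta were lower, at 9.51 ± 2.83 and 2.81 ± 1.123 RPKM, and Tgfb1 stood at 109 ± 12.4 RPKM.

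**Figure D2:**
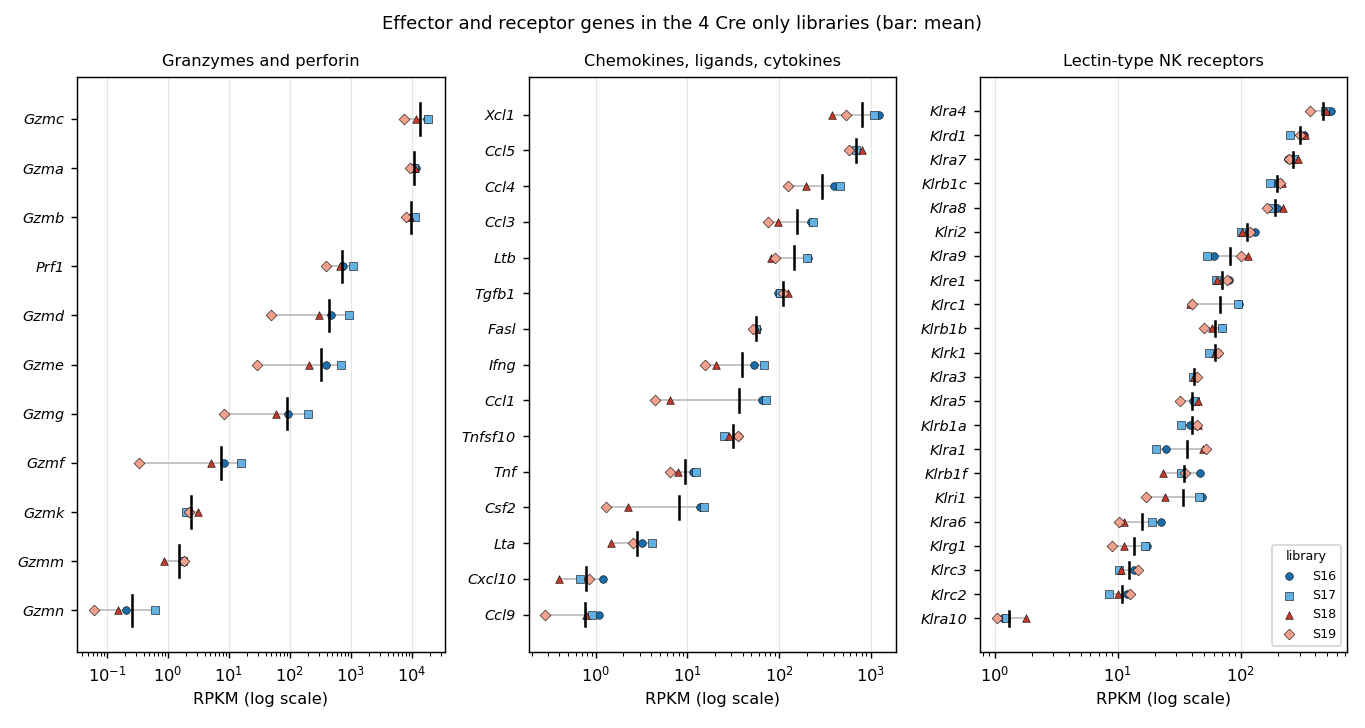
RPKM (horizontal, log scale) of 3 sets of genes (granzymes and perforin; chemokines, death ligands and cytokines; Ly49, NKG2 and NKR-P1 receptors) in each Cre only library, with 1 symbol per library and a black bar for the mean. The symbols of Gzmd, Gzme, Gzmg, Gzmf, Ccl1 and Csf2 are far apart with S19 lowest, while those of Gzma, Ccl5, Fasl, Klrd1 and Klra7 lie close together.

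The Ly49 receptor genes were led by an activating member. Klra4 (Ly49D, activating) stood at 538, 479.6, 495 and 364 RPKM and ranked 101. Klra8 (Ly49H, also activating, which binds a protein of mouse cytomegalovirus) stood at 196, 179.7, 221 and 164 RPKM. The inhibitory receptor gene Klra7 (Ly49G) lay between them at 244, 271, 293 and 245 RPKM. The ranges of Klra4 and Klra7 did not overlap, nor did those of Klra7 and Klra8. Klra9 (Ly49I) stood at 60.6, 52.9, 114 and 101 RPKM and Klra1 (Ly49A) at 24.8, 20.4, 49.6 and 52.1 RPKM, both higher in S18 and S19 than in S16 and S17. Klra3 (Ly49C) was level at 41.8 ± 1.348 RPKM. Klra5 (Ly49E) stood at 40.1 ± 5.45 RPKM and Klra6 (Ly49F) at 22.3, 18.9996, 11.2 and 10.1 RPKM, the only member found with both S16 and S17 above the other pair among the 8 at 5 RPKM or more. Klra10 stood at 1.32 ± 0.337 RPKM, and 2 of the 11 listed Ly49 genes were not analysed here. Ly49 genes resemble each other too, which leaves the division of reads among them uncertain. Single NK cells carry different sets of these receptors, which bulk RNA sums.

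Of the 13 genes of the NKG2, CD94, NKR-P1 and KLRG1 group all were found and all were above 10 RPKM. Klrd1 (CD94, the partner of NKG2 chains) stood at 326, 253, 329.6 and 305 RPKM, and Klrb1c (NK1.1) at 195, 173, 215 and 208 RPKM. Klrk1 (NKG2D, a receptor for stress ligands) stood at 64.7, 55.3, 61.1 and 65.2 RPKM, with no library far from the others. Klrc1 (NKG2A, inhibitory) stood at 96.7, 94.5, 38.4 and 40.2 RPKM, higher in S16 and S17 than in S18 and S19. Of other lectin-like chains Klri2 stood at 112 ± 14.1, Klre1 at 70.9 ± 9.17 and Klrb1b, an inhibitory NKR-P1 receptor, at 61.99 ± 9.79 RPKM. Klrg1, which marks mature NK cells, stood lower at 17.2, 16.7, 11.2 and 8.998 RPKM. The median of the group was 61.6 RPKM, against 6.16 for all genes.

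Activating receptors of the immunoglobulin type and their relatives lay at similar levels. Cd96 stood at 206 ± 24.4, Fcgr3 (CD16, the receptor for antibody) at 151 ± 44.1 and Cd48 at 149 ± 23.8 RPKM. Ncr1 (NKp46), a receptor that marks NK cells, stood at 187, 171, 106 and 124 RPKM. Cd160 stood at 186, 170.5, 77.9 and 101 RPKM and Slamf7 at 75.4, 85.1, 31.7 and 23.8 RPKM. All 3 were higher in S16 and S17, whereas Fcgr3 was higher in S18 (200.2 RPKM) and S19 (175) than in S16 (119.8) and S17 (108). Cd244a (2B4) stood at 87.1 ± 15.9 and Cd226 (DNAM-1) at 27.1 ± 6.43 RPKM. Fcgr4 stood at 0.344 ± 0.130 RPKM, and Slamf6 at 0.0128, 0.0251, 0 and 0 RPKM, the lowest of the 12 members found.

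By mean RPKM, 2 adaptors that carry signals of these receptors were above every receptor gene of the 3 lists. Tyrobp (DAP12, the partner of Ly49D and Ly49H) stood at 1036, 1122, 1308 and 1068 RPKM and ranked 27. Fcer1g, the partner of NKp46 and CD16, stood at 442, 449.6, 623 and 635 RPKM, higher in S18 and S19. Hcst (DAP10, the partner of NKG2D) stood at 150.1 ± 19.2 RPKM, above Cd247 (CD3 zeta) at 21.5 ± 4.79 RPKM. Of the kinases, Lck stood at 227 ± 16.7, Zap70 at 108 ± 16.3, Fyn at 98.8 ± 3.91 and Syk at 7.37 ± 2.61 RPKM, so that Zap70 was above Syk in every library. Lcp2 (SLP-76) and Plcg2 stood at 95.7 ± 3.87 and 70.2 ± 10.8 RPKM. Of 12 inhibitory checkpoint genes 7 were found, and the others were not analysed here. Cd96, which is in this list too and is given above, was the highest. Lag3 stood at 106, 106, 106 and 67.0 RPKM, with S19 below the rest. Havcr2 (TIM-3) stood at 15.4, 20.3, 13.2 and 6.54 RPKM, Entpd1 (CD39) at 28.4 ± 4.96 and Ctla4 at 1.72 ± 0.923 RPKM.

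For the cytokine that the culture contained, 1 shared chain and the private chain of the receptor were analysed, and the shared beta chain gene Il2rb was not analysed here. Il2rg, the common gamma chain, stood at 192, 184, 159.6 and 165 RPKM, and Il15ra at 3.11, 3.12, 2.77 and 2.48 RPKM. The ligand gene Il15 itself was at 0.119 ± 0.0412 RPKM, and Il2ra, the private chain of the IL-2 receptor, at 7.42 ± 1.53 RPKM. Of the kinases below this receptor Jak1 stood at 145 ± 14.5 and Jak3 at 74.9 ± 10.1 RPKM. Stat5b stood at 22.7, 22.2, 18.5 and 18.1 RPKM and Stat5a at 7.42, 7.29, 6.45 and 6.74 RPKM, so that Stat5b was higher in every library. Cish, a feedback inhibitor induced by STAT5, stood at 41.1 ± 3.14 RPKM with 4 similar libraries. Receptors for other cytokines included both chains of the IL-12 receptor, Il12rb2 (187 ± 24.8 RPKM) and Il12rb1 (108 ± 20.4 RPKM), and of the IL-18 receptor, Il18rap (67.0 ± 10.1 RPKM) and Il18r1 (26.7 ± 1.85 RPKM). Il27ra, Il21r, Tgfbr2 and Il4ra stood at 73.3 ± 25.4, 64.3 ± 16.4, 59.4 ± 15.1 and 44.2 ± 9.69 RPKM. In the signalling list Stat6 (59.2 ± 4.12 RPKM), Stat3 (38.6 ± 5.77 RPKM) and Stat4 (34.8 ± 6.08 RPKM) were above Stat5b, and Socs2 and Socs3 stood at 6.41 ± 0.477 and 3.60 ± 0.450 RPKM.

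Receptors for migration divided into a high and a near-absent set. Ccr2 stood at 135, 138, 154 and 137 RPKM, S1pr4 at 58.0 ± 5.56 and Cxcr3 at 30.5 ± 2.56 RPKM. S1pr5, which lets mature NK cells leave lymph nodes, stood at 0.757 ± 0.1002 RPKM and S1pr1 at 0.708 ± 0.407. Ccr7 and Cx3cr1 were lower still, at 0.283 ± 0.216 and 0.0187 ± 0.0195 RPKM. Cxcr4 stood at 7.04, 7.33, 0.493 and 0.744 RPKM, higher in S16 and S17, with an SD of 1.62 on the log2 scale although its mean of 3.90 RPKM kept it out of the counts of variable genes. Among integrins Itgb2 (310.2 ± 25.9 RPKM) and Itgal (176 ± 18.3 RPKM), which together form LFA-1, were highest, followed by Itgb1, Itgb3 and Itgax at 162 ± 22.3, 131 ± 17.4 and 91.3 ± 16.9 RPKM. Itgae (CD103) was at 0.112 ± 0.0386 RPKM. Of the maturation markers, Spn (CD43) stood at 190.1 ± 7.60 and Kit at 104 ± 37.2 RPKM. Itgam (CD11b) stood at 6.19, 7.59, 7.88 and 3.85 RPKM and Cd27 at 7.99, 7.36, 5.1995 and 4.83 RPKM. These last 2 genes, which stage NK cells in the spleen, had overlapping libraries and ranks of 5773 and 5786.

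Of 29 lineage transcription factors found, Id2 was highest. Id2, which holds E proteins in check, stood at 354, 381, 276 and 213 RPKM, and Bhlhe40 at 172, 189, 120.2 and 103 RPKM. Nfil3, needed for the NK lineage to arise, stood at 139.6, 166, 60.5 and 37.6 RPKM. All 3 were higher in S16 and S17 than in S18 and S19, and Nfil3 had an SD of 1.01 on the log2 scale. The T-box factors that specify NK cells lay close together, with Tbx21 (T-bet) at 61.3, 69.5, 54.5 and 54.8 RPKM and Eomes at 50.7, 50.4, 54.2 and 58.6 RPKM, and their libraries overlapped. Ets1 (97.2 ± 5.55 RPKM), Cbfb (88.9 ± 8.04 RPKM) and Runx3, the partner of Cbfb (53.4 ± 3.16 RPKM), were even across libraries. Tcf7 stood at 50.1, 40.8, 26.5 and 39.6 RPKM and Prdm1 (Blimp-1) at 21.2, 22.8, 10.9 and 8.86 RPKM. Zeb2, which acts late in maturation, was low at 1.04 ± 0.147 RPKM, and Myb and Id3 were below 1 RPKM at 0.564 ± 0.148 and 0.252 ± 0.124. The median of the list was 17.3 RPKM.

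The AP-1 family, which the title of the study names, was carried by JUN proteins. Jund stood at 189, 219.9, 192 and 140.0 RPKM, Junb at 206, 262, 103 and 74.2 RPKM and Jun at 35.8, 46.1, 56.5 and 37.7 RPKM. Junb was higher in S16 and S17, and for Jun S18 was highest. Batf, the AP-1 partner known from lymphocytes, stood at 30.2, 27.9, 25.5 and 28.8 RPKM. The FOS side was lower: Fosl2 stood at 10.6, 14.4, 8.30 and 5.85 RPKM, Fos at 2.00, 1.82, 1.48 and 1.51 RPKM, Fosl1 at 0.593 ± 0.196 and Fosb at 0.410 ± 0.184 RPKM. Every FOS member was thus below every library of Jun. Mafg and Mafk stood at 11.7 ± 1.46 and 9.98 ± 1.32, and Batf3 and Batf2 at 0.191 ± 0.0896 and 0.0407 ± 0.0278 RPKM. Of 17 immediate-early genes found, 15 were higher in S16 and S17 than in S18 and S19, where 29.8% of all genes at 5 RPKM or more were. Among the 15 were Nfkbia at 138, 145, 54.0 and 52.2 RPKM, Ier2 at 124, 149, 81.2 and 60.1 RPKM and Egr3 at 39.3, 49.2, 15.2 and 9.83 RPKM. Both exceptions, the phosphatase gene Dusp2 at 32.4, 36.1, 94.4 and 83.7 RPKM and Klf6 at 46.1 ± 6.11 RPKM, were higher in S18 and S19.

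**Figure D3:**
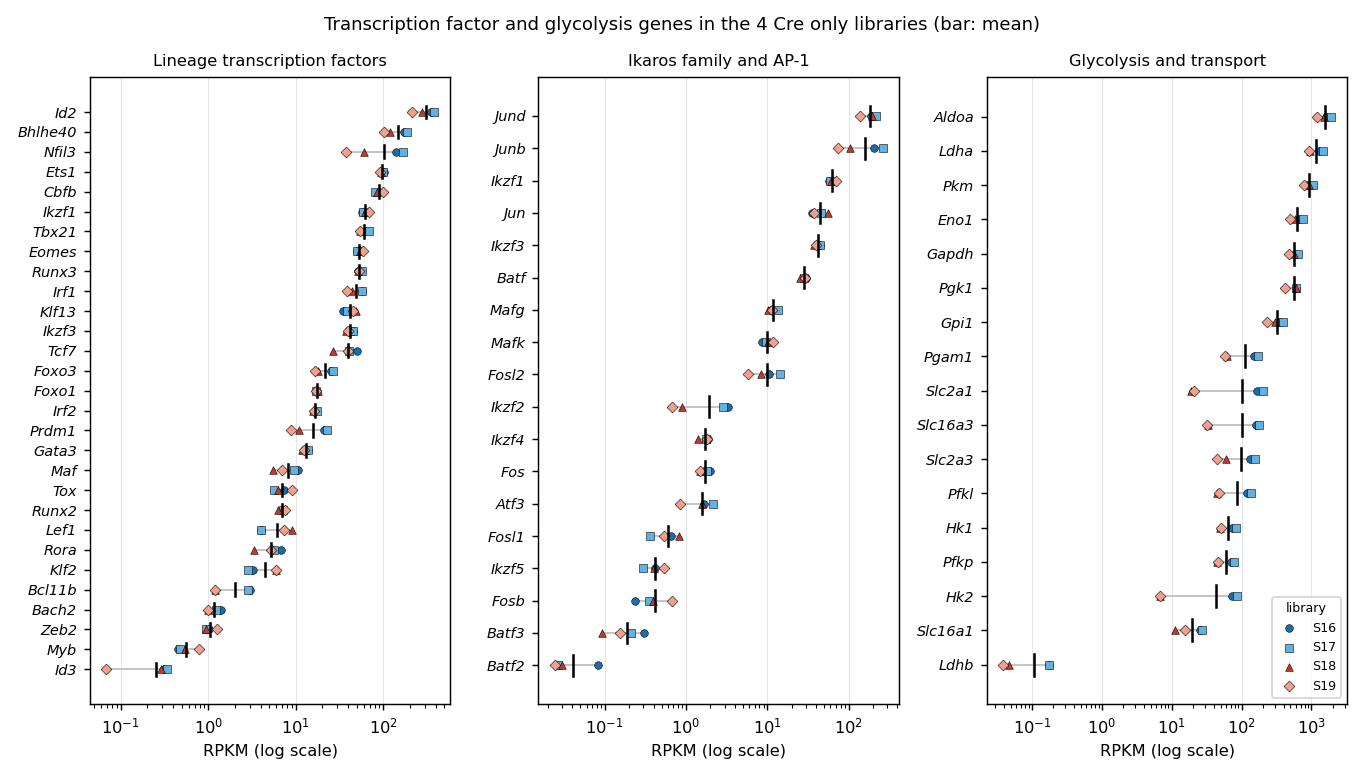
RPKM (horizontal, log scale) of lineage transcription factors, of the Ikaros and AP-1 families and of glycolysis genes in each Cre only library, with 1 symbol per library and a black bar for the mean. Jund, Junb and Jun lie to the right of all FOS genes, and the symbols of Slc2a1, Slc16a3 and Hk2 fall into a right pair (S16 and S17) and a left pair (S18 and S19).

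Of the metabolic lists, which hold nuclear genes, glycolysis had the highest members. Aldoa (aldolase) stood at 1617, 1905, 1521 and 1180.1 RPKM and ranked 16, and Ldha (lactate dehydrogenase) stood at 1285, 1476, 956 and 931 RPKM. Pkm, Eno1, Gapdh and Pgk1 stood at 907 ± 107, 624 ± 109, 567 ± 69.1 and 559 ± 89.6 RPKM. These abundant enzymes had SDs of 0.17 (Pkm) to 0.33 (Ldha) on the log2 scale. The spread was largest in 3 other members, each with an SD above 1. Slc2a1 (the glucose transporter GLUT1) stood at 168, 200.5, 18.8 and 20.6 RPKM, Hk2 (hexokinase 2) at 73.3, 85.4, 6.77 and 6.91 RPKM, and Slc16a3 (the lactate exporter MCT4) at 163, 176, 33.6 and 32.1 RPKM. The lower of S16 and S17 was 8.14 times the higher of S18 and S19 for Slc2a1, 10.6 times for Hk2 and 4.84 times for Slc16a3. Hk1 stood at 74.0, 84.0, 48.3 and 50.5 RPKM, so that in S16 Hk1 and Hk2 were nearly equal and in S19 Hk1 was 7.31 times Hk2. Of 16 members at 5 RPKM or more, 14 were higher in S16 and S17 than in S18 and S19, where 29.8% of all genes at that level were. The list median was 102 RPKM over the 4 libraries, 163 in S16 and 50.5 in S19, and 169 without S18 and S19. Ldhb, the other lactate dehydrogenase chain, was at 0.109 ± 0.0760 RPKM.

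Genes that are known targets of the hypoxia-inducible factors (HIF) had the largest spread among genes that are neither predicted nor antigen receptor segments. Egln3, a prolyl hydroxylase that marks HIF for destruction, stood at 86.8, 96.1, 3.54 and 1.057 RPKM, and Ankrd37, a short ankyrin protein, at 47.8, 50.5, 1.88 and 0.954 RPKM. Vegfa, the vascular growth factor, stood at 22.5, 31.9, 1.94 and 0.642 RPKM. The lower of S16 and S17 was 24.5 times the higher of S18 and S19 for Egln3, 25.4 times for Ankrd37 and 11.6 times for Vegfa. P4ha1, a collagen hydroxylase, stood at 145, 147, 34.3 and 26.4 RPKM, and Egln1, the main oxygen-sensing hydroxylase of HIF, at 157, 156, 61.1 and 64.2 RPKM. Ddit4, an inhibitor of mTORC1, stood at 145, 158, 53.5 and 35.5 RPKM and Bnip3, a receptor for mitophagy, at 47.1, 47.9, 14.7 and 10.6 RPKM. All 4 were higher in S16 and S17. Hif1a itself, whose protein rather than its transcript responds to oxygen, was level at 27.1, 24.0, 26.7 and 25.6 RPKM. Of 11 listed genes found, 10 were at 5 RPKM or more, and of these 9 were higher in S16 and S17 (29.8% of all genes at that level), 6 had an SD above 1 (0.984% of all) and the median SD was 1.08, against 0.154 for all genes at that level. Hif1a was the exception.

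HIF binds DNA at a core that can read ACGTG, and the 250 bases before the RefSeq start (build GRCm38.p6, which has the coordinates of mm10) are shown for 2 hypoxia genes and 2 glycolysis genes, chosen after their values were seen. They are printed 5′ to 3′ on the strand of the gene, in lower case, with ACGTG and its reverse complement CACGT in capitals.
Egln3 (chr12:54203875-54204124, minus strand): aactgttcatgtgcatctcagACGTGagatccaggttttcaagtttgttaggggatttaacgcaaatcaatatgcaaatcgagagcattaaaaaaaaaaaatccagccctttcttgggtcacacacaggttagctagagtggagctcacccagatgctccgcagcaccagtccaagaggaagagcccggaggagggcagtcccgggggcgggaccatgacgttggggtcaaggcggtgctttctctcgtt
Ankrd37 (chr8:45999851-46000100, minus strand): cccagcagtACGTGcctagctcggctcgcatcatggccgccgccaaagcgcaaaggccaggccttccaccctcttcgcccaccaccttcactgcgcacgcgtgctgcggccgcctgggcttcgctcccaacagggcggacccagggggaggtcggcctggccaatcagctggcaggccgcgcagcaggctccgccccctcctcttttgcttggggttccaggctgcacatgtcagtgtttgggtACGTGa
Hk2 (chr6:82774455-82774704, minus strand): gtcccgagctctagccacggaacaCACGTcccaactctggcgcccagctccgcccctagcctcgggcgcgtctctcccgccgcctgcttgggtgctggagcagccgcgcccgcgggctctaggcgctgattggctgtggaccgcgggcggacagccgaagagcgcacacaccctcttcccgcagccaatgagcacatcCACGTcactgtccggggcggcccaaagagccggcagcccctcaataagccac
Slc2a1 (chr4:119108495-119108744, plus strand): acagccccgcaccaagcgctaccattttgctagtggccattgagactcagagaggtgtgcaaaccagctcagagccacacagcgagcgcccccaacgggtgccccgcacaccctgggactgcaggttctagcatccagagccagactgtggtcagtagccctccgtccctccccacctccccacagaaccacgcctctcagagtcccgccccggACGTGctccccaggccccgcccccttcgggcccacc
Egln3 and Slc2a1 each held 1 match and Ankrd37 and Hk2 2 each, so that all 4 windows shown held one. Other genes of large spread are not shown. Among the 25 of largest spread, Rasl11a, Gzmd, Gzme, Gzmf, Gzmg, Csf2, Sdc4, Cd300lb, Rem2, C5ar1 and Cd3d held no match. Vegfa, Ccl1, Ak4, Hilpda, P4ha2, Slc16a3 and B3gnt3 held a match in 1 window. Over the analysed genes of the hypoxia list, 9 of the 10 with a window held a match (90.0%), Pdk1 being the exception. Hif1a, which was level across the libraries, was among the 9. Adm, a listed gene that was not analysed here, held no match in its window. A match was also held by 9 of 16 glycolysis genes (56.2%) and 18 of 43 variable genes with a window (41.9%). The share was 27.3% of all genes at 5 RPKM or more with a window and 16.6% of all 32851 windows. The motif was chosen after the values were seen, the list was compiled from known HIF targets, and the letters also occur within the E-box CACGTG that other factors bind. A match describes the sequence and shows no binding.

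The nuclear genes of oxidative phosphorylation varied less than those of glycolysis. Of 33 listed genes of oxidative phosphorylation 29 were found, all above 10 RPKM, with a median of 81.9 RPKM and a median SD of 0.11 on the log2 scale. Cox8a stood at 604, 616, 567 and 565 RPKM, Cox4i1 at 362 ± 16.01 and Atp5b at 342, 338, 334 and 386 RPKM, with S19 highest for the last. Ndufa4 was the member with the largest spread, at 39.3, 35.9, 43.6 and 78.6 RPKM. The genes of the mitochondrial genome were not part of that list and were less even, with SDs of 0.22 for mt-Co1, 0.36 for mt-Nd1 and 0.43 for mt-Cytb. The 21 genes of the tricarboxylic acid cycle and its links had a median of 43.5 RPKM, from Sdhd at 129 ± 7.77 to Idh2 at 4.84 ± 0.599 RPKM, and Acly, which exports citrate carbon for lipid synthesis, stood at 78.6, 82.1, 109 and 119.8 RPKM. Pentose phosphate and one-carbon genes had a median of 43.9 RPKM, led by Tkt (109 ± 11.9 RPKM) and Taldo1 (97.4 ± 4.55 RPKM). Shmt2, which feeds one-carbon units, stood at 56.1, 55.3, 64.9 and 90.7 RPKM.

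Lipid synthesis ran the other way across the libraries. Of 18 cholesterol and fatty acid genes at 5 RPKM or more, 14 were lower in S16 and S17 than in S18 and S19 and none was higher, where 29.7% of all genes were lower. Cyp51 stood at 49.5, 51.4, 88.5 and 74.6 RPKM and Hmgcs1 at 52.9, 56.7, 83.2 and 62.9 RPKM. Scd2, the most abundant, stood at 273, 277, 294 and 245 RPKM and did not part the pairs. The amino acid transporter Slc7a5 stood at 47.7, 65.4, 74.4 and 96.7 RPKM and its partner chain Slc3a2 at 42.9, 53.4, 48.6 and 50.6 RPKM. In the amino acid stress list 6 of 9 genes at 5 RPKM or more were lower in S16 and S17, beside 29.7% of all genes. Among the 6 were Asns (asparagine synthetase) at 8.57, 9.84, 22.1 and 20.3 RPKM and Gars at 72.2, 77.5, 89.9 and 103 RPKM. For Myc, a driver of growth, the values were 72.3, 75.2, 65.7 and 45.3 RPKM, and for its target Odc1 126, 128, 76.4 and 89.6 RPKM. Of 17 ribosome biogenesis and MYC genes at 5 RPKM or more, 10 were higher in S16 and S17 and none lower. Of all genes at that level, 29.8% were higher and 29.7% lower. Npm1 at 386 ± 15.0 and Ncl at 140.0 ± 6.03 RPKM were even across libraries.

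The cells expressed the genes of division, at levels that differed between libraries. Ccnb2 stood at 70.5, 46.1, 89.8 and 136 RPKM, Top2a at 64.0, 45.2, 71.4 and 119 RPKM and Ccna2 at 26.5, 21.0, 45.3 and 87.6 RPKM. Mki67, the gene of the proliferation antigen Ki-67, stood at 10.1, 11.0, 31.1 and 38.9 RPKM. S19 was highest and S17 or S16 lowest in each. Of 20 mitosis genes 19 were lower in S16 and S17 than in S18 and S19, where 29.7% of all genes at 5 RPKM or more were. The median of the list was 26.4 in S16, 19.1 in S17, 31.2 in S18 and 49.3 RPKM in S19. Of 20 replication genes, 18 did not part the pairs in either direction, where 40.4% of all genes at that level did not, with S19 highest in Pcna at 129, 114, 111 and 153 RPKM, Mcm5 at 80.1, 66.3, 68.5 and 126 RPKM and Rrm2 at 87.6, 57.9, 83.7 and 137 RPKM.

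Mcl1, the BCL-2 relative on which NK cells depend, stood at 162, 145, 161 and 149.6 RPKM and Bcl2 at 68.7, 66.6, 57.7 and 55.6 RPKM, and the median SD of the 12 survival and apoptosis genes at 5 RPKM or more was 0.16, near that of all genes at that level (0.154). Of the chaperones Hsp90ab1 was highest at 1109 ± 82.8 RPKM, Hspa8 stood at 384 ± 60.03 RPKM, and Hspa5, the chaperone of the endoplasmic reticulum, stood at 459.7, 459, 258 and 273 RPKM, higher in S16 and S17. Hspa1b, the heat-inducible HSP70, was at 0.158 ± 0.115 RPKM. The listed interferon-stimulated genes had a median of 5.23 RPKM over 19 genes found, near that of all genes (6.16 RPKM), and 7 were below 1 RPKM. Bst2 led that list at 52.7 ± 6.66 RPKM, while Ifit1, Ifit3, Rsad2 and Oasl2 stood at 0.771 ± 0.275, 0.163 ± 0.0344, 0.291 ± 0.149 and 0.586 ± 0.244 RPKM and Oas2 was listed at 0 in all 4 libraries. Of the listed long noncoding RNAs Gas5 stood at 33.0 ± 3.40 and Malat1 at 14.4 ± 3.77 RPKM. AW112010, a long noncoding RNA outside that list, was far higher. It stood at 975, 793, 961 and 918 RPKM and ranked 36.

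Most genes varied little. Among the 6404 genes of a mean of at least 5 RPKM, the median SD of log2(RPKM + 0.5) was 0.154, against a median of 0.0434 that counting of the recovered reads alone would give, so that counting error was the smaller part for the median gene. An SD below 0.1 was found for 1586 genes (24.8%) and one above 1 for 63 (0.984%). Both S16 and S17 were above S18 and S19 in 29.8% of the 6404 genes and below them in 29.7%. Of the 63 variable genes 53 were above, 6 below and 4 neither. The number above an SD of 1 was 40 when S19 was left out, 12 over S18 and S19 alone and 2 over S16 and S17 alone. This position was noticed in these data and is a description of 4 libraries.

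**Figure D4:**
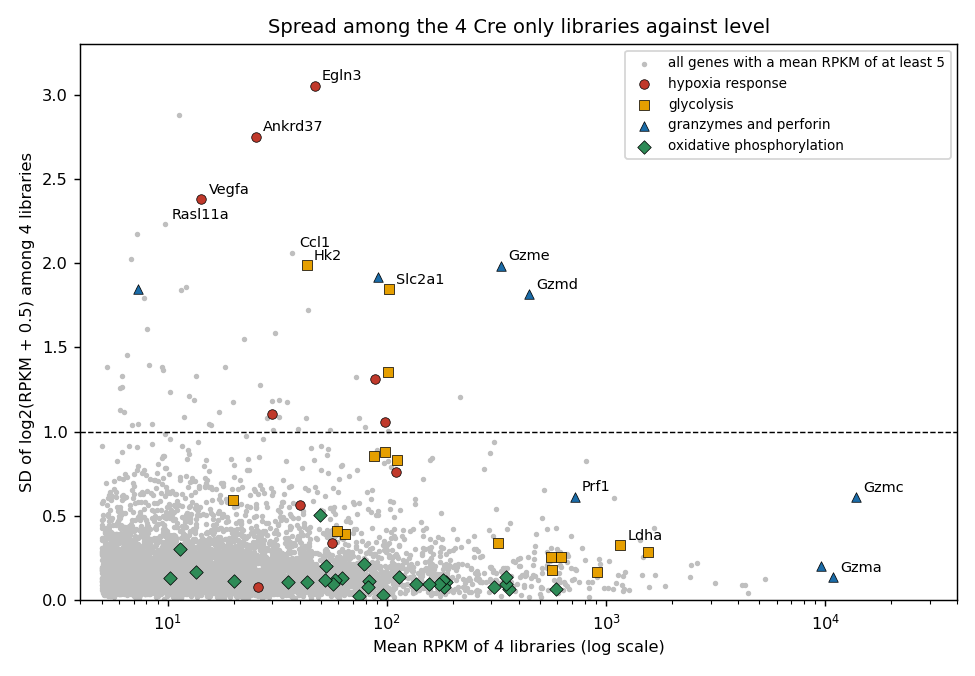
SD of log2(RPKM + 0.5) among the 4 Cre only libraries (vertical) against mean RPKM (horizontal, log scale) for the 6404 genes of a mean of at least 5 RPKM, in grey, with 4 gene lists in colour and a dashed line at an SD of 1. Egln3 and Ankrd37 are near the top at 3.05 and 2.75, with a grey point of a predicted gene between them, Gzmd and Gzme are apart from Gzma, and the genes of oxidative phosphorylation lie near the bottom.

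Without predicted genes and antigen receptor segments, 55 genes had an SD above 1, and S16 and S17 were above S18 and S19 in 49 of them. After Egln3, Ankrd37 and Vegfa the largest spreads were those of Rasl11a, a RAS-like GTPase (14.5, 22.4, 1.61 and 0.407 RPKM), Ccl1, Hk2 and the granzymes Gzme, Gzmg, Gzmf and Gzmd. Others known to respond to low oxygen followed, such as Ak4, a mitochondrial adenylate kinase (14.5, 14.2, 1.17 and 1.28 RPKM), Hilpda, a lipid droplet protein (71.4, 84.8, 9.83 and 9.15 RPKM), and P4ha2 (25.01, 36.7, 7.20 and 4.45 RPKM). Sdc4, a cell surface proteoglycan, stood at 53.4, 55.2, 7.26 and 8.12 RPKM, C5ar1, the receptor for complement C5a, at 15.3, 17.1, 3.21 and 2.28 RPKM, and B3gnt3, a glycosyltransferase, at 9.98, 11.3, 2.09 and 1.502 RPKM. Rem2, a small GTPase, stood at 7.497, 10.7, 1.95 and 0.978 RPKM. All of these were higher in S16 and S17. The 30 variable genes below the 25 of largest spread had SDs of 1.01 to 1.32. Cd74, the MHC class II invariant chain, stood at 17.5, 10.51, 1.69 and 3.21 RPKM and Cd3d at 20.4, 23.9, 6.75 and 2.97 RPKM, in the same order of pairs as the dendritic and T cell marker sums given above (16.7 to 75.8 and 440.4 to 697 RPKM), whose part was not tested.

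The 6 variable genes with the reverse order were Cd300lb, Cnnm2, Hist1h1c, Pmepa1, Mir5125 and Rpl3-ps1, of which Cnnm2, Hist1h1c and Pmepa1 are named because of their values. Cd300lb, an activating receptor known from myeloid cells, stood at 1.56, 1.61, 12.2 and 10.7 RPKM. Cnnm2, a magnesium transport protein gene, stood at 1.87, 1.95, 13.4 and 7.12 RPKM, Hist1h1c, a linker histone, at 13.9, 13.2, 67.4 and 45.8 RPKM, and Pmepa1, a target and inhibitor of TGF-beta signalling, at 2.24, 2.41, 10.8 and 9.79 RPKM. These 4 were lower in both S16 and S17 than in either S18 or S19. Mir5125 stood at 1.75, 5.16, 17.9 and 13.2 RPKM, a value that rests on a short gene model. Rpl3-ps1 stood at 2.57, 2.19, 2.88 and 38.2 RPKM, so that S19 alone was high, and as a pseudogene it may hold reads of its parent gene.

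**Figure D5:**
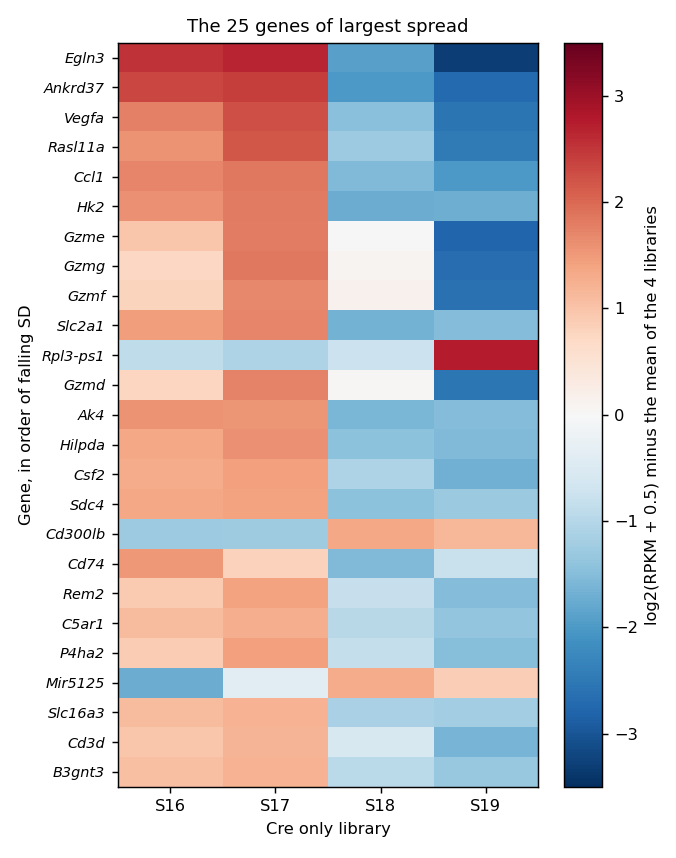
The 25 genes of largest spread (rows, in order of falling SD) in each Cre only library (columns), coloured by log2(RPKM + 0.5) minus the gene's mean over the 4 libraries, red above and blue below it. Most rows are red in S16 and S17 and blue in S18 and S19, the 4 granzymes are palest in S18 and bluest in S19, and Rpl3-ps1 is red in S19 alone.

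Egln3 and Gzmd had the same order of libraries, with S17 highest and S19 lowest. In S18 Egln3 stood at 3.54 RPKM and in S19 at 1.057 RPKM, and Gzmd at 296 and 49.5 RPKM. The S18 value of Gzmd was nearer to that of S16 (478 RPKM) than to that of S19. Of the 40 genes above an SD of 1 without S19, 37 were among the 63 found with it.

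At the other end, the 10 genes of smallest spread among those of at least 50 RPKM had SDs of 0.01 to 0.02 on the log2 scale. Ndufa10, a subunit of respiratory complex I, stood at 61.0, 60.4, 60.6 and 59.5 RPKM, Cdc42se1 at 99.4, 101, 98.8 and 99.1 RPKM and Ctnnb1 (beta-catenin) at 78.1, 78.2, 79.7 and 79.4 RPKM. Otulin, a linear deubiquitinase, Mbd2, a reader of methylated DNA, Tmem160 and F2r, a thrombin receptor, stood at 87.8 ± 1.01, 77.9 ± 1.16, 59.4 ± 0.893 and 108 ± 1.47 RPKM. The ribosomal genes Rps6 and Rps2 and the Arp2/3 subunit Arpc2 were the most abundant of the 10, at 506 ± 5.86, 834 ± 12.2 and 444 ± 5.44 RPKM.

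Egln3 also varied within the other groups, from 1.17 to 35.3 RPKM in Ikzf1 KO, from 0.656 to 23.8 in DKO and from 73.4 to 163 in Ikzf3 KO libraries, beside 1.057 to 96.1 in Cre only. For Slc2a1 the ranges were 17.2 to 74.5 RPKM in Ikzf1 KO, 14.4 to 60.5 in DKO and 96.5 to 141 in Ikzf3 KO, beside 18.8 to 200.5 in Cre only. Only the ranges are given, and differences between the groups were not tested here.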

How the data were processed

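RNA of sorted and cultured NK cells was sequenced as 75 bp single-end reads from stranded libraries of polyadenylated RNA, with RNA integrity above 7 and about 20 megareads intended per sample, per the labels' protocols. The authors deposited 1 table of RPKM with 11736 rows. STAR, featureCounts, limma 3.34.9 and the build mm10 are named in the submitters' processing notes, but settings, filters and use of strand are not given in the sources used here, so reads of overlapping genes cannot be told apart. Of the rows, 2 repeated another row's symbol and values and were left out, which gave 11734 genes. Exon lengths came from GENCODE mouse release M21, found for 11732 rows and not for 4. Values times length were whole reads within 0.02 for 96.3% to 96.4% of genes in the Cre only libraries, and 14.4, 15.0, 13.25 and 15.98 megareads were recovered for S16 to S19. The table was not complete, and genes outside it were not analysed here. Those analysed were 20.6% to 28.4% of the GENCODE protein-coding genes of chromosomes 15, 16 and 17 and 38.6% to 59.1% of those of the other autosomes and X, so ranks and missing markers refer to the genes analysed.

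Mean and SD were taken over the 4 libraries, spread as the SD of log2(RPKM + 0.5) for genes of a mean of at least 5 RPKM. The pseudocount of 0.5 understates the spread of low genes. The only tests were exact permutation tests, 2-sided, of Ikzf1 and Ikzf3 against the knockouts, adjusted by the Benjamini-Hochberg method. Gene lists (37 of function and 11 of cell type markers) were described by counts and medians, with no test. Named genes were Ikzf1 and Ikzf3, the 25 highest by mean, up to 8 of each list by mean and those below 1 RPKM, the 25 of largest SD without predicted genes and receptor segments, and the 10 of smallest SD at 50 RPKM or more. Other list members, such as Hk1, Mki67, Stat5b and Zeb2, were added after their values were seen. So were Spp1 and AW112010, which are in none of the lists they are set beside. Some genes chosen by the rule are not reported here by name and stayed in the counts. The libraries, members and lists were chosen with earlier results of these data known. Promoter windows came from RefSeq. The recovery of reads and the computation of spread were tested on simulated data, and the ranking was not. Tools were scipy 1.17.1, pandas 2.3.3 and numpy 2.4.6 under Python 3.11.15, and matplotlib 3.10.9 drew the figures. Alternatives were other pseudocounts, filters, rescalings, the median in place of the mean, and leaving out libraries.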

Additional observations from a re-analysis of the deposited data

Results flagged for a closer look

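For 348 values of the text (genes and list medians), it was asked whether 1 of the 4 libraries lay so far from the nearest other that the gap made up more than 0.829 of the whole range. Chance gives this for about 1 in 20 values, or 17.4 here, and 14 were found, 9 of them in S19, 3 in S18, 2 in S16 and none in S17. S19 was alone high for Atp5b, a subunit of ATP synthase, at 385.9 RPKM against 334 to 342 in the other libraries, for Cfl1 (cofilin) at 923 against 781 to 803, for the chaperone gene Hsp90ab1 at 1232 against 1055 to 1076, and for Taldo1 (transaldolase) at 104.2 against 95.1 in each of the others. The pseudogene Rpl3-ps1 was at 38.2 RPKM in S19 and at 2.19 to 2.88 in the others.

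S19 was alone low for the checkpoint receptor gene Lag3 at 67.0 RPKM against 105.6 to 106.5, for the glycolytic enzyme gene Pgk1 at 425 against 600.4 to 609, for the ribosomal protein gene Rpl17 at 1418 against 1741 to 1758, and for the T cell receptor constant gene Trbc1 at 263 against 303 to 311. In S18 Eef1a1 was high at 6048 RPKM against 5004 to 5157, Rsad2, an interferon-stimulated gene, was high at 0.514 against 0.204 to 0.240, and Gzmm was low at 0.858 against 1.74 to 1.83. In S16 Batf2 was high at 0.0823 RPKM against 0.0243 to 0.0294, a level near that of single reads, and the median of the JAK, STAT and SOCS genes was high at 30.3 RPKM against 27.1 to 27.6. As the number found is below that given by chance, nothing is read from them.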

How the results depend on the processing

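Alternatives were compared for counts, shares, list medians and the Ikzf1 and Ikzf3 differences. Counts were to stay within 1.5 times, and shares and medians within 1 SD, of the value reported. The Ikzf1 and Ikzf3 differences were instead to keep their sign and whether the adjusted test was significant. By these rules 496 values stayed and 19 did not. The tests could not become significant, since their p-values were already the smallest that the group sizes allow. All 2736 values for single genes stayed within 1 SD. For leaving out libraries or taking the median, that outcome was fixed in advance, because the SD came from the same 4 libraries. It is therefore no measure of stability. Egln3, with a mean of 46.9 RPKM, stayed within 1 SD without S16 and S17. Its values in S18 and S19 were 3.54 and 1.057 RPKM. None of the Ikzf1 and Ikzf3 differences changed sign, and the other values cannot be negative. The count of genes with an SD above 1 was the least stable. It was 63 as reported, 40 without S19 (37 of them shared with the 63), 12 without S16 and S17 (8 shared), 2 without S18 and S19 (both shared), 96 for genes of a mean of at least 1 RPKM and 98 with no filter on low values, and ran from 40 to 77 when 1 library was left out. Without S16 and S17 the list medians were 25.1 RPKM for death ligands and cytokines (35.2 with all libraries), 50.9 for Ly49 receptors (41.8), 44.4 for the NKG2 group (61.6), 27.4 for JAK, STAT and SOCS genes (29.2), 7.07 for AP-1 (9.79), 38.3 for pentose phosphate and one-carbon genes (43.9) and 4.07 for interferon-stimulated genes (5.23). Without S18 and S19 they were 3.05 for the Ikaros family (1.91), 14.1 for integrins (12.2), 22.0 for lineage factors (17.3), 405 for the cytoskeleton (444), 169 for glycolysis (102), 40.4 for pentose phosphate and one-carbon genes (43.9) and 0.135 for other innate lymphoid markers (0.0813). The median of granzymes and perforin, 330.4 RPKM with all libraries, moved by less than 1 SD, yet was 210.0 without S17, 116 without the first pair and 545 without the second. The cause was not tested. With 1 Cre only or knockout library left out, the differences in Ikzf1 ran from 40.3 to 44.2 RPKM (Ikzf1 KO) and 29.1 to 35.7 (DKO), and those in Ikzf3 from 22.9 to 25.3 (Ikzf3 KO) and 19.2 to 21.6 (DKO). No paired analysis was possible because the columns carry library numbers and not the replicate numbers of the labels. In a gene of 1 kb 1 read was worth 0.0612 to 0.0743 RPKM, so depth limits the lowest genes, and the number of libraries, 4, limits every statement on spread.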
